A study of Mus musculus with 36 samples.

Results

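The genes described here make and load the MHC class I molecule, which shows peptides from inside a cell to CD8 T cells. They are the heavy chains H2-D1 and H2-K1, the light chain B2m, the peptide transporter subunits Tap1 and Tap2, and the immunoproteasome subunits Psmb8, Psmb9 and Psmb10. Every probe set whose annotation gives 1 of these 8 symbols was taken, which found 13 of the 12422 probe sets of the array that are not controls (8 of 8251 genes with a probe set of their own): 3 for H2-D1, 3 for H2-K1, 2 for Tap1 and 1 for each of the other genes. All 13 passed the filter on low signal, as did 9291 probe sets in all. A further 3 probe sets carry a member symbol among 4 to 10 symbols of the class I family and are kept apart.

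Signals come from 1-colour arrays hybridised with total RNA of mouse diaphragm. The mdx mouse has lost dystrophin through a mutation in Dmd. Both mdx and control animals were sampled at 7, 14, 23, 28, 56 and 112 days, with 3 arrays per age and genotype, or 36 arrays in 12 groups. The labels give no strain, sex, number of animals or pooling for either genotype, and the mutation is present in every cell of the mdx mouse rather than in muscle alone. Whether replicates are separate animals is not said, and p-values therefore cover only the spread of these arrays, part of which can be technical.

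As background, proteins in the cytosol are cut by the proteasome, and the peptides are pumped into the endoplasmic reticulum by a transporter made of Tap1 and Tap2. There they are fitted into a heavy chain paired with B2m, and the complex travels to the cell surface. Interferon gamma makes cells replace the catalytic subunits Psmb5, Psmb6 and Psmb7 by Psmb8, Psmb9 and Psmb10, which gives the immunoproteasome and changes which peptides are cut. Nearly all nucleated cells carry class I molecules, but healthy muscle fibres are known to carry little, and leukocytes and vessel cells carry much. In whole tissue a change in the number of such cells and a change in RNA per cell cannot be told apart.

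The stretches upstream of the transcription starts are shown because several members share control elements there and because Tap1 and Psmb9 share a single stretch. They are from RefSeq on GRCm38.p6, 5′ to 3′ on the strand of the gene. In the heavy and light chain stretches the capitals mark matches to a kappaB site, which Rel family factors bind, and to AANNGAAA, the core that interferon regulatory factors bind, each searched on both strands. Bases that follow the start are left out.
H2-D1 (chr17:35262844-35263093, plus strand): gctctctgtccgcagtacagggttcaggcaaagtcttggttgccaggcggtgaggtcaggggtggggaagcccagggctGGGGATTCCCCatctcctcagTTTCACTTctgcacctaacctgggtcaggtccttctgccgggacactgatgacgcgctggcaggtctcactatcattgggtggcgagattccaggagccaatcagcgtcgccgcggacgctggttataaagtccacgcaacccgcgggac
H2-K1 (chr17:34000348-34000597, minus strand): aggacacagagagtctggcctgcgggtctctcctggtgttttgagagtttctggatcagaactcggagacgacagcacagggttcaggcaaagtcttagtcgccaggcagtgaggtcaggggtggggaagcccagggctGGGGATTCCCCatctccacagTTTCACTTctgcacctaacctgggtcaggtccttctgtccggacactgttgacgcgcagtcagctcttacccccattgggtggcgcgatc
B2m (chr2:122147437-122147686, plus strand): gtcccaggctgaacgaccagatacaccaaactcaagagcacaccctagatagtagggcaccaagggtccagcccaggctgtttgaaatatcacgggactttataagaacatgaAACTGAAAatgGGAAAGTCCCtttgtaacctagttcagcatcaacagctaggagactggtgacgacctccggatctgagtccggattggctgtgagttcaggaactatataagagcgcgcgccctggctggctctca
Tap1 and Psmb9 (chr17:34187331-34187555, strand of Tap1): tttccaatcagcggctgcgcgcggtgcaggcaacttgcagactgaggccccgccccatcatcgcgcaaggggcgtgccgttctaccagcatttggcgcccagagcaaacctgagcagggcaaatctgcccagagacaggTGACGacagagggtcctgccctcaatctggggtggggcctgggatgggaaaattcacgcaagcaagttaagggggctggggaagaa

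Of the 8 genes 7 had a window in the RefSeq table. The H2-D1 and H2-K1 stretches matched at 166 of 190 aligned bases (87.4%), and both hold overlapping kappaB matches in GGGGATTCCCC followed by TTTCACTT, a match to the interferon core on the opposite strand. In B2m the interferon core, AACTGAAA, comes first and the kappaB match GGAAAGTCCC follows it. A kappaB match and an AANNGAAA match within the 250 bases before the start were found together in 3 of the 7 member windows, those of H2-D1, H2-K1 and B2m, and in 1.11% of all 32851 windows. Tap1 and Psmb9 start 225 bases apart and run in opposite directions, with Psmb8 and Tap2 the next genes beyond Tap1 on chromosome 17. In that shared stretch the capitals mark TGACG, and neither a kappaB nor an AANNGAAA match was found there. TGACG was found in 5 member windows (H2-D1, H2-K1, B2m, Tap1 and Psmb9) and in 17.8% of all windows, AANNGAAA in 21.3% and kappaB in 7.25%. The Tap1 and Psmb9 matches are the same bases of the shared stretch, counted once from each start. These 5 windows are thus not independent, nor are those of the similar H2-D1 and H2-K1. A match is a run of letters and does not show that a factor binds.

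The columns had been brought to a common level before deposit, and the arrays' median signals lay between 451 and 725. They were low on the 23-day arrays (451 to 517) and high on the 14-day arrays (663 to 689). Replicates of a group correlated with r of 0.884 to 0.975. All 12 listed muscle fibre genes, creatine kinase Ckm and skeletal actin Acta1 among them, passed the filter. Group means of Dmd were 171 to 519.8 in mdx and 469 to 776 in control diaphragm, with the mdx mean the lower at each of the 6 ages. The liver protein gene Alb read above 10000 on 9 arrays, of which 6 were control arrays and 3 mdx arrays, at 7, 14, 56 and 112 days. They included 2 of the 3 control arrays at 14 days and also at 112 days.

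Part of the class I and immunoproteasome transcripts rose modestly in mdx diaphragm. As a mean over the 6 ages, 5 of the 13 probe sets rose in mdx and 0 fell, at an adjusted p under 0.05 in limma, where 10.4% of all tested probe sets rose. The risers were H2-D1 (101886_f_at and 97541_f_at), Tap1 (103035_at), Psmb8 and Psmb10, with log2 differences of 0.23 to 0.55. The median over the 13 was 0.23 on the log2 scale, against 0.03 over all tested probe sets. B2m was the member with the lowest value, -0.36 ± 0.15 (SE, adjusted p = 0.0896), which was not a call.

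Age by age few members passed. At 7 days 0 of 13 were called in limma, with 0 at an unadjusted p under 0.05 (10.7% of all probe sets), and the median log2 difference was -0.06 (background 0.463% called). At 14 days 1 rose (background 0.161%), H2-D1 by 97541_f_at. At 23 days 0 were called (background 3.49%), with 4 at an unadjusted p under 0.05 (14.1% of all). At 28 days 0 were called (background 2.96%), with 3 at an unadjusted p under 0.05 (12.7% of all). At 56 days 1 rose, Psmb10 (background 9.27%), and at 112 days 1 rose, Psmb8 (background 7.65%). The share of members called at each of the last 4 ages was thus near or below that of all probe sets. At 23 days all 3 mdx arrays lay above all 3 control arrays for 6 of 13 (12.6% of all probe sets) and at 112 days for 6 of 13 (13.7% of all). The corresponding counts were 4 at 28 days (11.5% of all) and 4 at 56 days (24.2% of all). Median log2 differences of the members were 0.11, 0.26, 0.22, 0.38 and 0.27 from 14 to 112 days, and those of all probe sets -0.00, -0.01, -0.04, 0.15 and 0.02. After quantile normalization the median of all probe sets at 56 days was 0.01, so the 56-day differences are best read against that shift.

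**Figure D1:**
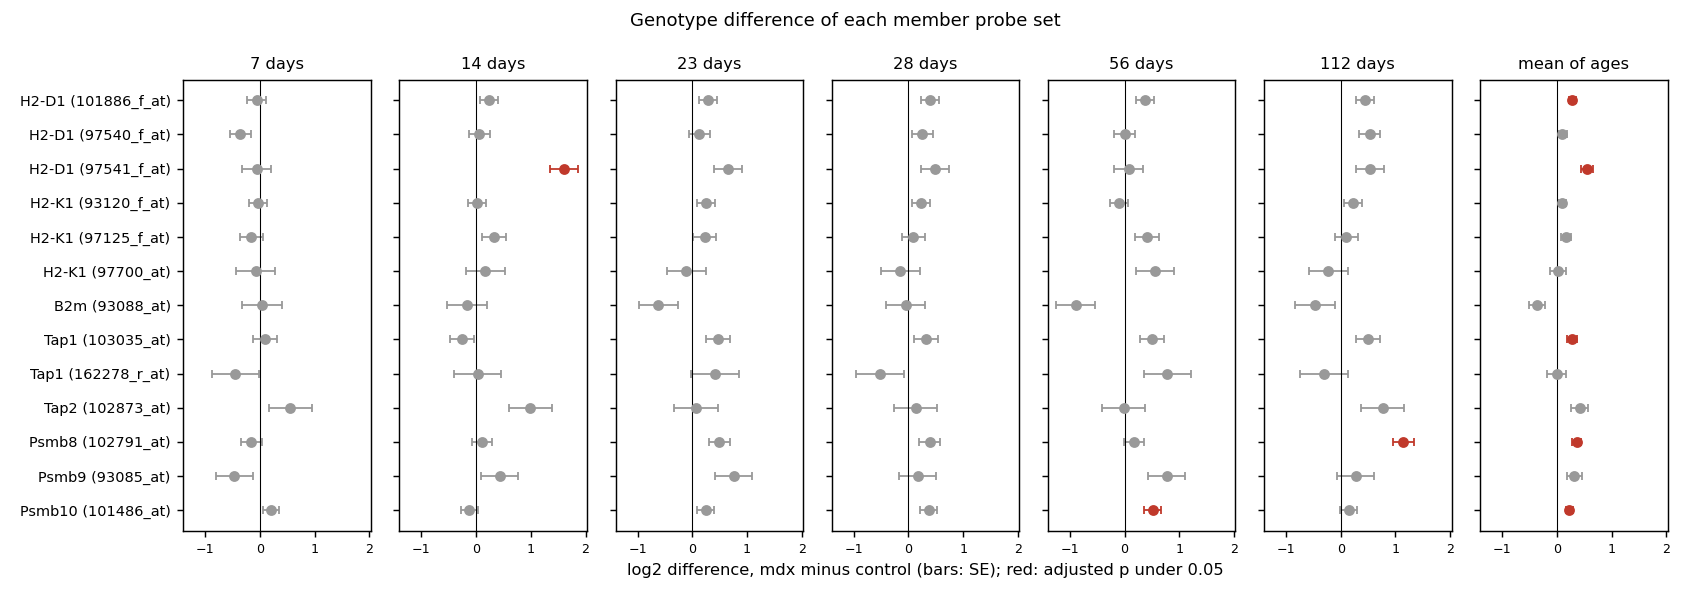
Log2 difference of mdx minus control (x axis, bars show the SE) for each of the 13 probe sets (rows) at each age and as the mean of the 6 ages (panels). Red points passed an adjusted p of 0.05: 97541_f_at of H2-D1 at 14 days, Psmb10 at 56 days, Psmb8 at 112 days and 5 probe sets in the mean, while B2m lies left of 0 at 5 of 6 ages.

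H2-D1, a classical heavy chain expressed by nearly all cells, was read by 3 probe sets, which are given apart. All 3 end in _f_at, the array maker's mark for probes that can read several members of a gene family, so part of each signal may come from H2-K1 or other class I genes. For 97541_f_at the 14-day signals were 569.8, 573 and 434 in mdx, against 309, 72.5 and 136 in controls. The groups did not overlap, and the log2 difference was 1.61 ± 0.26 (SE, adjusted p = 0.00126), while 101886_f_at gave 0.23 (adjusted p = 0.921) and 97540_f_at 0.06 (adjusted p = 1) at that age. The control mean at 14 days was the lowest of the 12 groups for this probe set, and the 2 lowest control signals came from arrays with high albumin. With the high-albumin arrays left out, so that 1 control array remained at 14 days, the difference was 0.82, against 1.61 with all arrays. The spread of the lone array is there taken from the other groups. The call was lost in a limma fit on the 6 arrays of that age alone (adjusted p = 0.471). The part of the high-albumin arrays in the result was not tested.

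At the other ages the 97541_f_at differences ran from -0.06 at 7 days to 0.65 at 23 days, none of them a call. The mdx signals were 1158, 807 and 829 at 23 days, against 611, 638 and 485 in controls. At 112 days they were 2099, 1879 and 1844 in mdx and 1349, 1219.7 and 1432 in controls, again with no overlap. An F test found that the genotype difference of this probe set depended on age (adjusted p = 0.0263), as it did for Psmb8, so 2 of 13 members passed where 8.93% of all probe sets did. Its 14-day and 23-day differences did not pass the test between those 2 ages (-0.96, adjusted p = 0.34). The F test call of 97541_f_at did not hold in all fits, as given in the closing sections.

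A brighter H2-D1 probe set showed a smaller excess in mdx. By 101886_f_at the mean over the ages was 0.28 ± 0.07 (SE, adjusted p = 0.00297), or 1.22-fold, and 16 of 18 mdx arrays lay above the control mean of their age. Signals at 28 days were 10928, 11343 and 13977 in mdx and 8913, 9768 and 8606 in controls, and at 112 days 10686, 12868 and 8861 in mdx and 7124, 7925 and 8610.5 in controls. Neither pair of groups overlapped, yet neither single age was a call (adjusted p = 0.258 at 28 days and 0.0814 at 112 days). The call over the mean held in all 36 fits without 1 array (log2 0.24 to 0.31). The probe set 97540_f_at was not called over the mean (0.10, adjusted p = 0.413). Its largest difference was at 112 days, with 15302, 15705 and 12308 in mdx and 8436, 9523 and 12062 in controls (0.54, adjusted p = 0.0644).

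H2-K1, the second classical heavy chain, was not called in mdx minus control at any age or over the mean by any of its 3 probe sets. For 93120_f_at the mean over the ages was 0.10 ± 0.07 (SE, adjusted p = 0.376), with differences from -0.11 at 56 days to 0.26 at 23 days. At 23 days its signals were 15779, 12284 and 13855 in mdx and 11864, 12255 and 10800.1 in controls, the lowest mdx array lying just above the highest control array. At 112 days they were 20012, 20373 and 16163 in mdx and 14748, 14028 and 20198 in controls, where control replicate 3 lay among the mdx arrays. The means over the ages were 0.17 for 97125_f_at and 0.03 for 97700_at. The probe set 102161_f_at, whose annotation lists 10 class I symbols, gave 0.09 ± 0.08 (SE, adjusted p = 0.461) and was not called either.

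**Figure D2:**
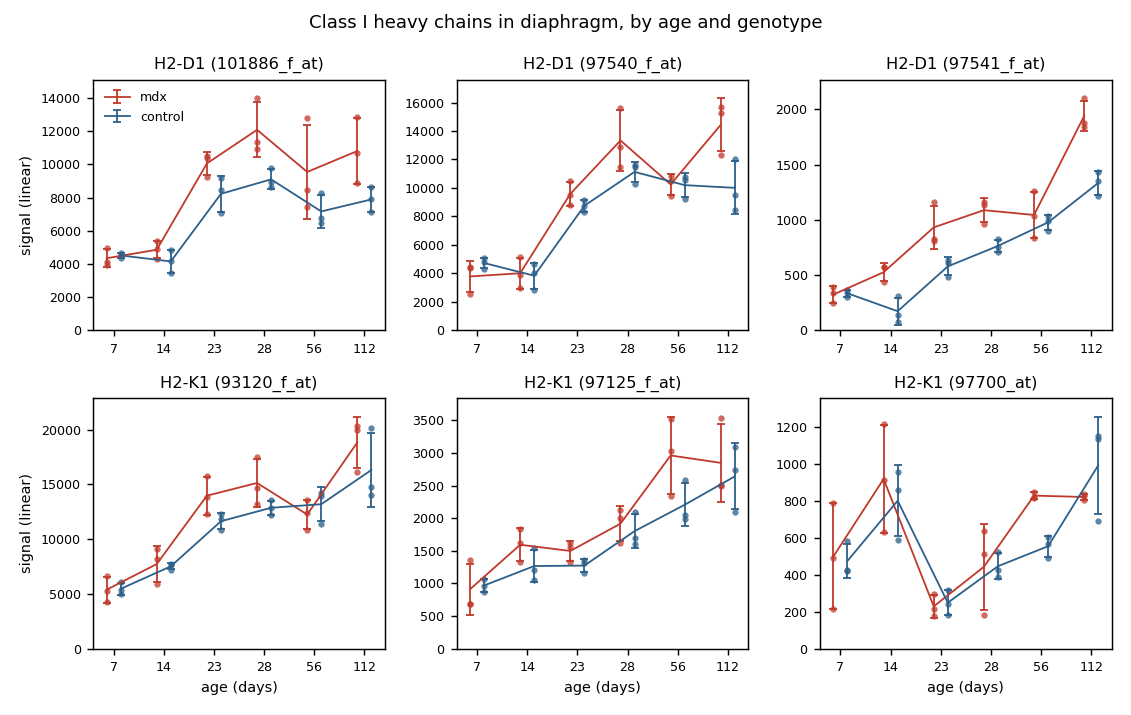
Signal (y axis, linear, from 0) at each age (x axis, ages evenly spaced, not to scale) for the 3 probe sets of H2-D1 and the 3 of H2-K1. Dots are arrays, lines join group means and bars show the SD (n = 3), with mdx in red left of control in blue. For 101886_f_at, 97540_f_at and 93120_f_at all arrays from 23 days on lie above all arrays of 7 and 14 days in both genotypes.

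The light chain B2m, without which heavy chains do not reach the surface, had a mdx minus control difference above 0 at only 1 of 6 ages. It was not called at any age, and B2m was not tested against the heavy chains. Its signals at 23 days were 15725, 15528 and 11553 in mdx, against 21749, 22295 and 21119 in controls. All mdx arrays lay below all controls, the only such case among the 13 at that age. That share of the members was no higher than the share of all probe sets (10.3%). The difference of -0.62 ± 0.36 (SE, adjusted p = 0.469) was no call in the fit to all arrays and a call in the fit on these 6 arrays alone (adjusted p = 0.0468). At 56 days the signals were 7296, 22129 and 10703 in mdx and 20856, 28842 and 18288 in controls, with mdx replicate 2 inside the control range (-0.89, adjusted p = 0.0829). Without that array the difference was -1.33, adjusted p = 0.0131.

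B2m varied widely between replicates. At 28 days its mdx signals were 20448, 6010.4 and 7406, against 9046, 9413 and 11867 in controls. The ratio of the Gapdh control probe set named 3′ to the one named 5′ was 0.660, 0.105 and 0.0558 on those 3 mdx arrays. The ratio was below 1 on all 36 arrays (0.0357 to 0.971), whereas the 3′ end usually reads the brighter, so the names may be swapped and it is not known whether a high ratio marks better or poorer RNA. At 56 days it was 0.198, 0.888 and 0.128 on the mdx arrays. In both of these groups the array with the highest B2m signal had the highest ratio, but over all 12 groups this held in 5 (mdx at 14, 28 and 56 days, controls at 7 and 23 days). With the log2 of the ratio as a covariate the B2m mean over the ages passed as a fall (-0.51, adjusted p = 0.00897). It passed as well without any of 3 single arrays (mdx replicate 1 at 28 days, mdx replicate 2 at 56 days or control replicate 2 at 112 days) and with array weights, at log2 values of -0.45 to -0.37 in these 4 fits.

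The transporter genes gave a rise that depended on the probe set. Tap1, which binds and hydrolyses ATP to move peptides, rose over the mean of the ages by 103035_at, 0.27 ± 0.09 (SE, adjusted p = 0.032), and 13 of 18 mdx arrays lay above the control mean of their age. Its signals were 1283, 1625 and 1228 in mdx and 957, 909 and 1020.4 in controls at 56 days, and 1562, 2031 and 1292 in mdx and 1227, 1038 and 1132 in controls at 112 days. The groups did not overlap at either age, but neither difference was a call: 0.50 (adjusted p = 0.116) at 56 days and 0.49 (adjusted p = 0.15) at 112 days. The call over the mean was lost without any of 9 single arrays, 4 control and 5 mdx arrays spread over all 6 ages (adjusted p up to 0.0647), after quantile normalization (adjusted p = 0.118), with array weights (adjusted p = 0.0519) and with the high-albumin arrays left out (adjusted p = 0.0562). The dim probe set 162278_r_at, above the filter signal of 374 on 9 of 36 arrays, gave -0.01 and no call.

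Tap2, the partner of Tap1 in the pump, gave 0.42 ± 0.16 (SE, adjusted p = 0.0735) as the mean of the 6 ages, which was not a call. At 112 days its signals were 607, 1031 and 1159 in mdx and 435, 524 and 601 in controls. The lowest mdx array lay just above the highest control array, and the difference was 0.77 (adjusted p = 0.223). Its signals were dim and spread in young mice, at 7 days 177, 304 and 391 in mdx against 239, 57.8 and 354 in controls, and at 14 days 407, 424 and 524 in mdx against 474, 116 and 158 in controls. Tap1 and Psmb9, which share their upstream stretch, had mean differences of 0.27 and 0.32.

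**Figure D3:**
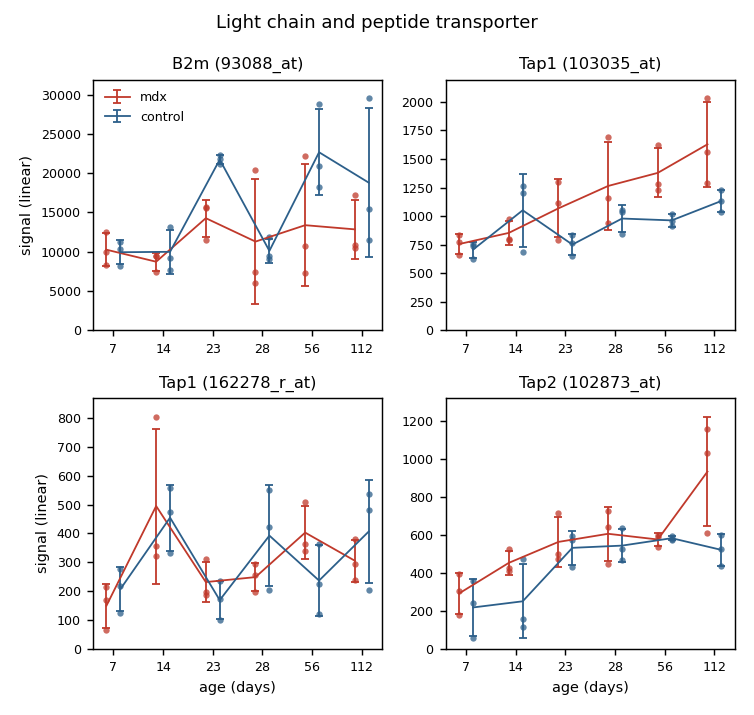
Signal (y axis, linear, from 0) of B2m, the 2 probe sets of Tap1 and Tap2 at each age (x axis, evenly spaced, not to scale). Dots are arrays, lines join means and bars show the SD (n = 3), with mdx in red left of control in blue. At 28 days a single mdx array lifts the B2m mean of mdx to 11288, against 10109 in controls.

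Psmb8, the immunoproteasome form of the chymotrypsin-like subunit Psmb5, had the lowest adjusted p of any member in mdx minus control at a single age. At 112 days its signals were 2653, 3351 and 3119.6 in mdx, against 887, 1714 and 1609 in controls. Every mdx array lay above every control array, and control replicate 1 lay well below its 2 partners. The log2 difference was 1.15 ± 0.19 (SE, adjusted p = 6.48e-05), or 2.22-fold, and it was a call under all the alternatives run and without any single array. Without control replicate 1 it was 0.85, adjusted p = 0.0013.

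At 23 days Psmb8 read 2904, 2154 and 2504 in mdx and 1926, 1596 and 1789.6 in controls, and at 28 days 2336, 2431 and 3096 in mdx and 2117, 1986 and 1836 in controls. The groups were apart at both ages, though neither was a call, with 0.50 (adjusted p = 0.176) at 23 days and 0.39 (adjusted p = 0.38) at 28 days. At 56 days the mdx signals were 2182, 2025 and 2049 and the control signals 2032, 1937 and 1597, which overlapped (0.17, adjusted p = 0.551). At 7 and 14 days the groups overlapped and the difference was no call (-0.16 at 7 days and 0.11 at 14 days), with 751, 1050.4 and 1135 in mdx and 1201, 913 and 1145 in controls at 7 days and 936, 1005 and 950.5 in mdx and 1048, 779 and 864 in controls at 14 days. Over the mean of the ages the difference was 0.36 ± 0.08 (SE, adjusted p = 0.000902), and the F test found that it depended on age (adjusted p = 0.0171). That dependence was lost in 1 of 36 fits without an array, the fit without mdx replicate 2 at 112 days (adjusted p = 0.053). The test of 112 days against 28 days was not passed (0.76, adjusted p = 0.326). In limma 0 of 13 members passed it, where 0.129% of all probe sets did, and 1 had an unadjusted p under 0.05, as had 8.64% of all. The test of 23 days against 14 days was passed by 0 of 13 too, where 0.323% of all did, and 2 had an unadjusted p under 0.05, as had 9.88% of all.

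Psmb10, which takes the place of Psmb7, rose at 56 days. Its signals there were 3136, 3481 and 2878 in mdx and 2154, 2512 and 1963 in controls, with no overlap, a log2 difference of 0.51 ± 0.15 (SE, adjusted p = 0.0194) or 1.43-fold. The call was lost without control replicate 1 or 3 or mdx replicate 1 or 2 of that age (adjusted p up to 0.0846) and in a fit on those 6 arrays alone (adjusted p = 0.0523). At 28 days its signals were 3409, 3530.3 and 3634 in mdx and 2791, 2482 and 2901 in controls, also apart (0.37, adjusted p = 0.265). The mean over the ages was 0.23 ± 0.06 (SE, adjusted p = 0.0104). Psmb9, which takes the place of Psmb6, had 0.32 ± 0.14 (SE, adjusted p = 0.111) and was not called at any age. At 23 days it read 1293, 832 and 974 in mdx and 671, 598 and 510.1 in controls (0.75, adjusted p = 0.292), and at 56 days 916, 769.6 and 798 in mdx and 569.5, 377 and 484 in controls (0.77, adjusted p = 0.115). The groups did not overlap at either age.

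Of the 3 constitutive subunits that these replace 0 were called over the mean of the ages. The log2 differences were 0.11 (adjusted p = 0.268) for Psmb5, 0.02 (adjusted p = 0.863) for Psmb6 and -0.09 (adjusted p = 0.125) for Psmb7. Psmb7 fell at 56 days, the age of the Psmb10 call, with 8039, 8929.8 and 9094 in mdx and 11128, 10203 and 10696 in controls (-0.30, adjusted p = 0.0374). At 112 days, where Psmb8 rose, Psmb5 read 9009, 7911 and 8321 in mdx and 5682, 6369 and 7918 in controls (0.35, adjusted p = 0.157, no call). These Psmb5 values, and its mean over the ages, are from the brighter of its probe sets. The dimmer one differed in sign at 112 days and was no call either (-0.22, adjusted p = 0.712). Its means there were 1763.3 in mdx and 2093.5 in controls. A test of the difference between a subunit and its counterpart was not run.

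**Figure D4:**
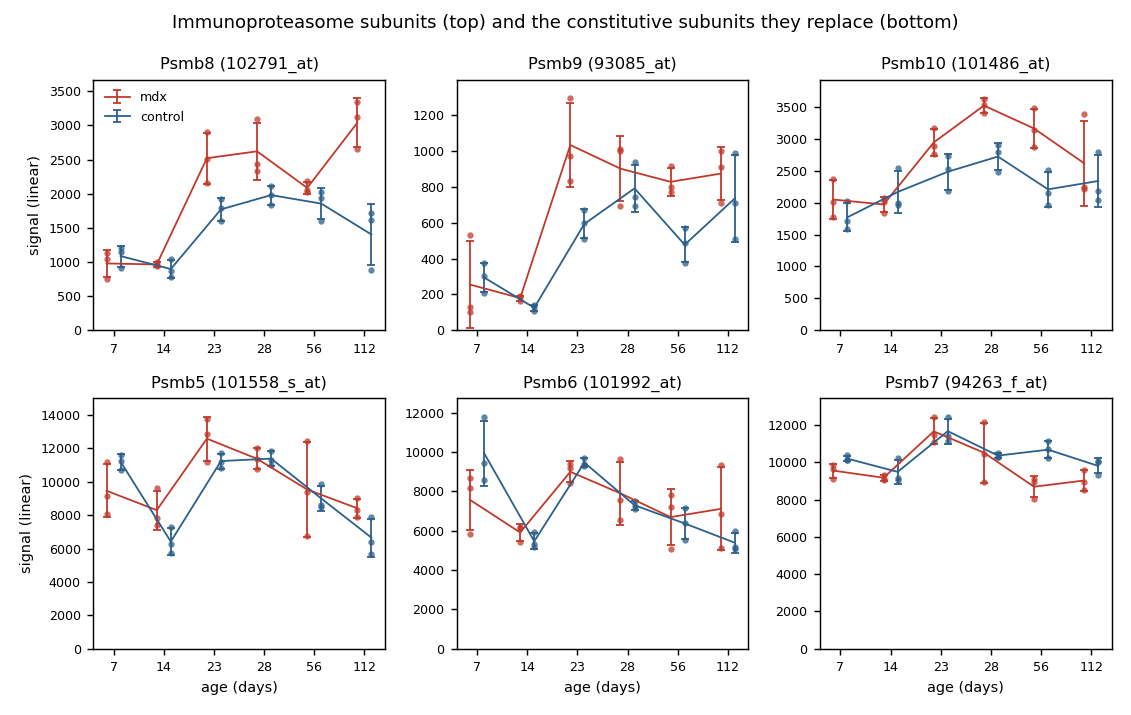
Signal (y axis, linear, from 0) of the immunoproteasome subunits Psmb8, Psmb9 and Psmb10 (top row) and of Psmb5, Psmb6 and Psmb7 (bottom row) at each age (x axis, evenly spaced, not to scale). Dots are arrays, lines join means and bars show the SD (n = 3), with mdx in red left of control in blue. The 3 mdx arrays of Psmb8 at 112 days lie above all control arrays of that age, and the bottom row shows no rise in mdx that passed the test.

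Most of these genes rose with age in both genotypes. In control diaphragm 10 of 13 probe sets, covering 6 of the 8 genes, rose between 7 and 112 days and 0 fell, where 21.4% of all tested probe sets rose and 20.3% fell. In mdx diaphragm 9 of 13, also 6 genes, rose and 0 fell, where 8.18% of all rose and 9.18% fell. The median log2 change of the members was 1.59 in mdx and 0.99 in controls, against 0.04 in mdx and 0.10 in controls over all probe sets. All arrays of 112 days lay above all arrays of 7 days for 11 of 13 probe sets in mdx (12.7% of all) and 11 of 13 in controls (26% of all).

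For H2-K1 by 93120_f_at the mdx signals were 20012, 20373 and 16163 at 112 days, against 5256, 4252 and 6637 at 7 days, and the control signals 14748, 14028 and 20198 at 112 days, against 6055, 5337 and 4996 at 7 days. These are log2 changes of 1.82 ± 0.17 (SE, adjusted p = 1.53e-09) in mdx and 1.56 ± 0.17 (SE, adjusted p = 1.23e-08) in controls, or 3.53-fold in mdx and 2.95-fold in controls. As an _f_at probe set, 93120_f_at can also read other class I genes. The H2-K1 probe set without that mark, 97700_at, was called in controls only. Its mdx means were 499 at 7 days and 820 at 112 days. Of the 13 the largest change in each genotype was in H2-D1 by 97541_f_at, 2.49 ± 0.26 (SE, adjusted p = 2.19e-08) in mdx and 1.90 ± 0.26 (SE, adjusted p = 1.14e-06) in controls. Its 7-day signals were dim, above the filter signal of 374 on 1 of 3 mdx and 0 of 3 control arrays. Psmb9 read 998, 912 and 711 at 112 days and 132, 532 and 101 at 7 days in mdx, and 508, 990.5 and 708 at 112 days and 300.4, 209 and 374 at 7 days in controls. It rose in both genotypes, by 1.96 (adjusted p = 8.30e-05) in mdx and 1.22 (adjusted p = 0.00503) in controls. Tap1 by 103035_at rose by 1.06 (adjusted p = 0.000698) in mdx and 0.66 (adjusted p = 0.0168) in controls, and Tap2 by 1.59 (adjusted p = 0.00447) in mdx and 1.38 (adjusted p = 0.00631) in controls. The control calls of both were lost without control replicate 2 at 7 days, with Tap2 at 0.76, adjusted p = 0.101 and Tap1 at 0.58, adjusted p = 0.063. That of Tap1 was also lost without control replicate 1 at 112 days (adjusted p = 0.0597).

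Psmb8 rose with age in mdx, 1.62 ± 0.19 (SE, adjusted p = 1.68e-07), and was not called in controls, 0.31 ± 0.19 (SE, adjusted p = 0.176). In controls its group means were highest from 23 to 56 days. They were 1086 ± 153 at 7 days, 897 ± 137 at 14 days, 1770.5 ± 166 at 23 days, 1979.7 ± 140.5 at 28 days, 1855 ± 229 at 56 days and 1403 ± 450.1 at 112 days (SD, n = 3). In mdx they were 979 ± 202 at 7 days, 964 ± 36.3 at 14 days, 2520.4 ± 375 at 23 days, 2621 ± 414 at 28 days, 2086 ± 84.8 at 56 days and 3041 ± 356 at 112 days. The order of the control ages between 23, 28, 56 and 112 days was not tested. All control arrays at 28 days (lowest 1836) lay above all at 112 days (highest 1714), and every other pair of these ages overlapped. The lower control mean at 112 days, and with it the small control change, rested in part on replicate 1 (887, against 1714 and 1609). The F test bears on the genotype difference over all ages. The difference between these 2 ageing changes was not tested singly. B2m was called in neither genotype, with 0.31 (adjusted p = 0.617) in mdx and 0.81 (adjusted p = 0.0667) in controls. Psmb10 was not called in mdx (0.33, adjusted p = 0.147) and passed in controls (0.39, adjusted p = 0.0422), where leaving out replicate 2 or 3 of either age ended the call, with values down to 0.26, adjusted p = 0.215. That call was also lost with the high-albumin arrays left out (0.13, adjusted p = 0.614), with the Gapdh ratio as a covariate (0.18, adjusted p = 0.541), without the filter, with array weights and on the 6 arrays alone. For 97700_at of H2-K1 the control call (0.99, adjusted p = 0.0255) was likewise lost without replicate 1 or 3 at 7 days or 1 or 2 at 112 days. With the high-albumin arrays left out, so that 1 control array remained at 112 days, 5 control calls remained: 93120_f_at and 97125_f_at of H2-K1, 97540_f_at and 97541_f_at of H2-D1, and Tap2.

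**Figure D5:**
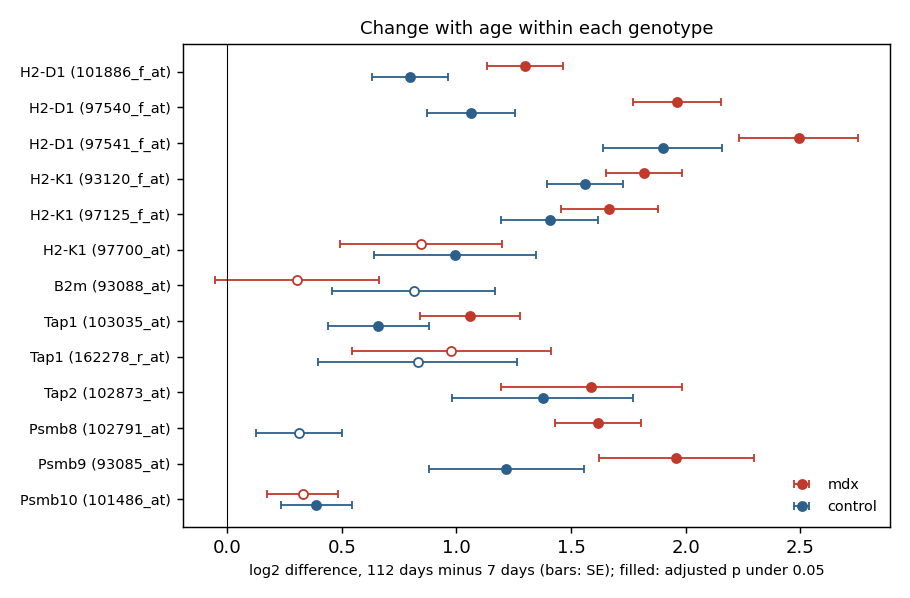
Log2 change from 7 to 112 days (x axis, bars show the SE) of each of the 13 probe sets (rows) in mdx (red, upper point) and control (blue, lower point) diaphragm. Filled points passed an adjusted p of 0.05. All points lie right of 0, and Psmb8 shows the widest gap between the genotypes.

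Much of the change lay between 14 and 23 days, an interval picked after the values were seen. Over it 7 of 13 rose and 1 fell in mdx, where 15.4% of all rose and 26.2% fell, and 8 of 13 rose and 2 fell in controls, where 17.1% of all rose and 30.1% fell. Psmb9 read 1293, 832 and 974 at 23 days and 185, 164 and 189 at 14 days in mdx (2.31, adjusted p = 9.41e-06), and 671, 598 and 510.1 at 23 days and 131, 105 and 140.1 at 14 days in controls (1.99, adjusted p = 3.29e-05). Psmb8 rose by 1.35 (adjusted p = 4.93e-06) in mdx and 0.96 (adjusted p = 0.000157) in controls, and H2-D1 by 97540_f_at by 1.28 (adjusted p = 1.14e-05) in mdx and 1.21 (adjusted p = 1.34e-05) in controls. The step was not particular to the members. Read by the brightest probe set of each gene, all 3 constitutive subunits (Psmb5, Psmb6 and Psmb7) rose over it in both genotypes. Their median log2 change was 0.60 in mdx and 0.79 in controls. A dimmer probe set of Psmb5 went the other way, so the rise of Psmb5 depended on the probe set. Its group means were 2198.4 at 14 days and 552.6 at 23 days in mdx, and 2212.3 at 14 days and 561.1 at 23 days in controls. Of 4 proteasome activators and assembly factors 2 rose and 0 fell in each genotype. In the other direction, 97700_at of H2-K1 fell in both genotypes, by a log2 change of -1.84 (adjusted p = 0.000191) in mdx and -1.57 (adjusted p = 0.000731) in controls. Of the other probe sets of that gene, 93120_f_at rose in both genotypes (0.87 in mdx, 0.63 in controls), though in controls the call was lost after quantile normalization (0.38, adjusted p = 0.0587), and 97125_f_at was called in neither. Tap1 by 162278_r_at fell in controls (-1.31, adjusted p = 0.0144), a call lost after quantile normalization and without replicate 3 of the controls at either age. With the high-albumin arrays left out, so that 1 control array remained at 14 days, the control calls numbered 5. Those lost were 97700_at (-1.17, adjusted p = 0.0832) and 93120_f_at of H2-K1 (0.59, adjusted p = 0.0572), 162278_r_at of Tap1, Tap2 and B2m.

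The 14-day and 23-day arrays differ in median signal, as given above, and the part of that in the step was not tested singly. The median log2 change over all tested probe sets was -0.17 in mdx and -0.22 in controls, and after quantile normalization 0.02 in mdx and 0.02 in controls. For 101886_f_at and 97540_f_at of H2-D1 and 93120_f_at of H2-K1 all 24 arrays of 23 days and older lay above all 12 arrays of 7 and 14 days, which held for 0.387% of all tested probe sets. After quantile normalization this held for 4 of 13, 97541_f_at of H2-D1 joining the 3. By 93120_f_at the lowest older array read 10800.1 and the highest younger array 9101. For Psmb8 a single older array, control replicate 1 at 112 days, fell inside the younger range of 751 to 1201.

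Among other genes of the pathway the share called varied by list, where 10.4% of all probe sets rose over the mean of the ages. Of 6 measured genes of peptide loading and the endoplasmic reticulum 3 rose over that mean and 0 fell (median log2 0.17). They were Pdia3, a disulphide isomerase of the loading complex (0.39, adjusted p = 0.00034), tapasin Tapbp, which bridges heavy chains to the transporter (0.16, adjusted p = 0.0262), and Sec61a1, a channel for proteins entering the endoplasmic reticulum (0.18, adjusted p = 0.028). Of 4 proteasome activators and assembly factors 1 fell, Psme4 (-0.21, adjusted p = 0.0173), and 0 rose. Of 12 other class I or class I-like genes 0 rose and 0 fell (median 0.00).

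Interferon target genes made up a larger set of calls. Of 15 measured 9 rose and 0 fell over the mean of the ages, with a median log2 difference of 0.48, where 10.4% of all probe sets rose. At 112 days 8 rose (median 0.87, 7.65% of all rose), and at 7 and 14 days 0. Those with the lowest adjusted p were Ifi204 (0.55, adjusted p = 1.86e-05), the GTPase Igtp (0.51, adjusted p = 0.000137), the ubiquitin-like Isg15 (0.52, adjusted p = 0.000204) and Usp18, which removes Isg15 (0.69, adjusted p = 0.00327). With age, 14 of the 15 rose in mdx (8.18% of all) and 7 in controls (21.4% of all) between 7 and 112 days, and the difference between these counts was not tested. Among 12 genes of interferon signalling 1 rose, the transcription factor Irf8 of myeloid cells (0.90, adjusted p = 1.92e-05), while Irf1, a known activator of class I genes, did not (0.03, adjusted p = 0.893). Interferon gamma itself (Ifng) did not pass the filter and read at most 153 on any array.

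Macrophages are rich in class I, and their markers rose in mdx. Of 14 tested macrophage markers 14 rose over the mean of the ages (median log2 1.12), among them the protease Ctss (2.08, adjusted p = 7.05e-18), Lgals3 (2.56, adjusted p = 2.04e-15), lysozyme Lyz2 (1.29, adjusted p = 1.36e-13) and the adaptor Tyrobp (1.61, adjusted p = 2.88e-13). At 7, 14, 23, 28, 56 and 112 days 0, 2, 12, 11, 13 and 12 of the 14 rose. The summed signal of the 15 listed markers was 23661 to 30772 in mdx and 18997 to 21484 in controls at 14 days, 49694 to 95658 in mdx and 15854 to 18429.8 in controls at 23 days, and 60949 to 106102 in mdx and 19638 to 22289 in controls at 28 days. It was 65899 to 79243 in mdx and 22038 to 26254 in controls at 56 days, and 81537 to 85532 in mdx and 20684 to 22248 in controls at 112 days. Of 7 class II genes 6 rose (median 0.64), among them the invariant chain Cd74 (0.72, adjusted p = 9.34e-08). Of the endothelial markers, 5 of 10 fell and 0 rose, with Vwf (-0.32), Tek (-0.32), Flt1 (-0.28) and Emcn (-0.21) first by adjusted p. The share of all probe sets that fell over the mean is not given here, so counts of falls stand without a background. Of 9 fibroblast genes 3 rose and 1 fell, of 12 muscle fibre genes 0 rose and 3 fell, and of 6 B cell and 5 liver genes 0 were called. Of 18 listed T and NK cell markers 15 were on the array and 5 passed the filter. Among these 0 rose and 1 fell, Thy1 (-0.41, adjusted p = 0.0212), which fibroblasts also make. Thy1 is on both lists and is also the 1 fall among the fibroblast genes. Cd8a, which marks the T cells that read class I, read at most 149.5 on any array, and the summed signal of the T and NK list at 112 days was 4371 to 4853 in mdx and 2682 to 5094 in controls. The part of these cells in the members' values was not tested.

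Across the 36 arrays, with the mean of each age taken out, the members varied together in part. Among the 66 pairs of the 12 probe sets other than B2m the Pearson r ran from -0.26 to 0.69 (median 0.27) and was above 0 in 57. Among the 12 pairs with B2m it ran from -0.59 to 0.07 and was above 0 in 1. These values and those that follow describe the arrays, which share genotype and array quality, and carry no test.

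By the same measure the genes most like Psmb8 were S100a6 (r = 0.87), Reep5 (r = 0.85), Laptm5 (r = 0.83), Snrpg (r = 0.82) and C1qb (r = 0.82). Laptm5 and the complement chain C1qb are genes of leukocytes and macrophages. Those most like Tap1 (103035_at) were Cytip (r = 0.74), Lgals3bp (r = 0.74), Prkcb (r = 0.73), Man2b1 (r = 0.72) and Akr1b8 (r = 0.72), and those most like H2-K1 (93120_f_at) were Bud31 (r = 0.66), Slfn2 (r = 0.61), Eif3k (r = 0.59), Il10rb (r = 0.57) and Plin2 (r = 0.57). B2m was followed by Mgst3 (r = 0.85), Ndufa9 (r = 0.84), Uqcrh (r = 0.83), Pdha1 (r = 0.81) and Ndufab1 (r = 0.79). Of these, Ndufa9, Uqcrh and Ndufab1 encode parts of the respiratory chain and Pdha1 a subunit of pyruvate dehydrogenase, all of the mitochondrion.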

How the data were processed

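RNA of 36 mouse diaphragm samples was read on 1-colour Affymetrix arrays of 12488 probe sets, 66 of them controls. The deposited values are linear intensity per probe set, 1 column an array. The software and scaling behind them are not given in the sources used here. Since the mean signal between percentiles 2 and 98 was 1499 to 1499.7 on every array, the deposited intensity values had been scaled to a common level. Groups came from the labels. Gene names are those of GEO's platform annotation, in which 10833 probe sets have 1 symbol, 396 several and 1193 none; only single symbols were named.

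The log2 of signal plus 32 was fitted with limma 3.58.1 in R 4.3.3 (lmFit and eBayes with trend) as 12 group means over all 36 arrays. Probe sets above percentile 40 of all signals (374) on at least 3 arrays were tested, 9291 in all, and p-values were adjusted over all of them by Benjamini-Hochberg; adjusted p under 0.05 is a call. Log2 differences understate the change of dim probe sets. Depth has no count here, and the number of arrays limits the precision. Code was tested on simulated data.

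The members and the 14 gene lists were chosen with earlier results of these data known. All member probe sets are described; lists are given by counts and medians over 1 probe set a gene, that with the highest mean signal, with up to 4 called genes named by adjusted p. Likeness took the 5 genes with the highest r after removing age means. The change between 14 and 23 days was added after the values were seen. Alternatives were other pseudocounts (16 and 64), no filter or percentile 60, quantile normalization, array weights, a replicate block, own arrays only, arrays with high albumin left out, the Gapdh ratio as a covariate, and each array left out. Replicate numbers carry no stated pairing. Same-numbered mdx and control arrays of an age correlated in their deviations from the group means with r of -0.225 to 0.147, over 0.1 in 1 of 18 pairs, so they were not paired. Upstream sequences are RefSeq's (GRCm38.p6), searched on both strands.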

Additional observations from a re-analysis of the deposited data

Results flagged for a closer look

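In 2 of the 13 probe sets the difference between mdx and control diaphragm itself differed between ages in an F test across the 6 ages in limma. For Psmb8 the adjusted p was 0.0171, with log2 differences of -0.16, 0.11, 0.50, 0.39, 0.17 and 1.15 from 7 to 112 days. For H2-D1 by 97541_f_at it was 0.0263, with -0.06, 1.61, 0.65, 0.49, 0.08 and 0.53. Leaving out mdx replicate 2 at 112 days ended the first (adjusted p = 0.053). Leaving out any 1 of 4 of the 14-day arrays ended the second (control replicate 2, control replicate 3, mdx replicate 1 or mdx replicate 2, adjusted p 0.0624 to 0.0775). The second was also lost with the Gapdh ratio as a covariate (adjusted p = 0.0509) and with a replicate block (adjusted p = 0.0727). Its 14-day difference was 0.82 with the high-albumin arrays left out, so that 1 control array remained at that age.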

How the results depend on the processing

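The counts of 5 calls over the mean of the ages and 9 age calls in mdx diaphragm stayed within 1.5 times under every alternative run. These counts take calls in either direction, and the probe sets behind them could change. With array weights the mean call of Tap1 was lost (adjusted p = 0.0519 in limma), while B2m passed as a fall. B2m also passed as a fall with the Gapdh ratio as a covariate. In fits on the arrays of the groups compared alone, 0 members were called at 14 days, 1 at 23 days and 0 at 56 days. Quantile normalization gave 2 at 56 days, and array weights 2 at 56 days and 2 at 112 days. Without the arrays with albumin above 10000 the counts were 0 at 14 days, 1 for 112 days minus 28 days, 1 in the F test, 5 for the change of controls from 7 to 112 days and 5 for that from 14 to 23 days. The F test had 1 with the Gapdh ratio as a covariate, as the call of H2-D1 by 97541_f_at was lost (adjusted p = 0.0509). The replicate block changed the F test count to 1, as the call of H2-D1 by 97541_f_at was lost (adjusted p = 0.0727). It also ended the mean call of Tap1 (adjusted p = 0.0633) and the control ageing call of Psmb10 (adjusted p = 0.0578). With each array left out the counts were 0 to 2 at 56 days, 1 to 2 at 112 days, 1 to 3 in the F test and 0 to 1 for 23 days minus 14 days. The causes of these shifts were not tested, beyond there being fewer arrays. Of the single probe set values, 1719 kept their direction and side of the threshold under the other settings, 31 lost and 16 gained a call. With an array left out the numbers were 1973, 36 and 19. No called value reversed. Probe sets named _f_at can read other class I genes. Signals near or below the filter level limit what differences can show (162278_r_at of Tap1, and 97541_f_at of H2-D1, Tap2 and Psmb9 in young mice).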

Other observations

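Some class I and class I-like genes outside the members also rose with age. Of 12 measured, 4 rose and 0 fell in mdx diaphragm between 7 and 112 days, where 8.18% of all probe sets rose. In controls 5 rose and 0 fell, where 21.4% of all rose. Rising in both were H2-M3, which presents formylated peptides (0.86, adjusted p = 0.00582 in mdx and 0.67, adjusted p = 0.0159 in controls), and Hfe, a regulator of iron uptake (0.78, adjusted p = 0.00533 in mdx and 0.72, adjusted p = 0.00448 in controls). H2-K2 was called in mdx (3.13, adjusted p = 0.000161) and not in controls (0.67, adjusted p = 0.351), and its probe set, an _f_at one, can read other class I genes. Its signals at 112 days were 12256, 15687 and 15324 in mdx and 4498, 4430.3 and 13223 in controls, and at 7 days 339.7, 2075 and 5646 in mdx and 5315, 3326 and 3681 in controls. The genotypes overlapped at both ages.

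H2-Q10, a secreted class I protein of the liver, was lower in mdx at 112 days (-1.57, adjusted p = 0.0349). Its signals were 881, 1369.7 and 777 in mdx and 1273, 3433 and 5968 in controls, and albumin on the same arrays read 805, 15430.5 and 774 in mdx and 236, 18782 and 37444 in controls. At that age the arrays with high albumin had the high H2-Q10 signals within each genotype, and the part of this in the difference was not tested.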
